A study of Mus musculus with 6 samples.

Results

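Genes that mark blood-forming cells and their products were followed in RNA from 6 mouse livers. The set holds 34 genes: 13 of granulocyte precursors, 11 of red cell precursors with the adult globins, 8 progenitor factors and 2 megakaryocyte genes. Its members were found by gene symbol, and 32 of the 34 matched a row of the deposited table, which has 32212 rows. Tfr2l and Ahsp were not matched and were not analysed here. All 32 matched members had counts in at least 1 library, and 20 passed the filter on low counts, which asks for the level of about 10 counts in at least 3 libraries. A gene that was counted in a single liver therefore could not be tested, and it is described by its counts.

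The livers came from male C57BL/6 mice that were kept on normal chow and are labelled as 2 yr old. Wild-type (WT) mice were compared with CgA-KO mice, which lack Chga, the gene of the prohormone chromogranin A, with 3 mice of each genotype and 1 poly(A) library per mouse. Each library held the RNA of a whole piece of liver with the blood cells in it, so fewer cells of a type and less RNA per cell cannot be told apart. Chga had 0 counts in all 6 libraries, so it cannot check the genotype labels. Total counts ranged from 10558616 to 31087453 per library. A floor of 3 counts corresponded to between 0.095 and 0.268 CPM, the unit of counts scaled to a fixed library total, after TMM scaling by a trimmed mean of log ratios between libraries, for counting error only. All 12 hepatocyte markers passed the filter, and Alb, the gene of serum albumin, ranged from 30650 to 66160 CPM. No hepatocyte marker was called in either direction.

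CgA-KO replicate 2 stood apart from the other 5 livers in the granulocyte genes, and WT replicate 1 had the lowest globin levels and was the shallowest library. Values are therefore given for each library in the order WT replicates 1, 2 and 3 and CgA-KO replicates 1, 2 and 3.

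Granulocytes develop in bone marrow from progenitors that first fill primary granules with myeloperoxidase and serine proteases and later fill secondary granules with antimicrobial proteins such as lactoferrin and cathelicidin. Circulating neutrophils keep these proteins but have largely stopped making their messenger RNA, so the transcripts mark immature stages. Red cell precursors make globin and haem in step, and their globin transcripts persist in young red cells in the blood. The liver is a blood-forming organ before birth, and in the adult that role lies mainly with the bone marrow.

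The promoters of 7 members are shown because the results turn on these genes: 4 granule genes counted almost entirely in CgA-KO replicate 2, the 2 alpha globin genes and Alas2. Each sequence is the 250 bases before the start of the gene in RefSeq, on GRCm38.p6, read 5′ to 3′ on the plus strand. The GENCODE starts, used for the other coordinates given here, lie inside the stretch shown for all 7 genes. By that annotation, part of each sequence is within the gene. Capitals mark letters that match a motif of blood cell factors or a TATA motif on either strand.
Mpo (chr11:87793534-87793783): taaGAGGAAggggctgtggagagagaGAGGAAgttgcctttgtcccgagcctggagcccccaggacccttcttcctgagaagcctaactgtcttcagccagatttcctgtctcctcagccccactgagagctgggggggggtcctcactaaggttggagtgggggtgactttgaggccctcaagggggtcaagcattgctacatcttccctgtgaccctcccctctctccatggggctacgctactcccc
Elane (chr10:79886062-79886311): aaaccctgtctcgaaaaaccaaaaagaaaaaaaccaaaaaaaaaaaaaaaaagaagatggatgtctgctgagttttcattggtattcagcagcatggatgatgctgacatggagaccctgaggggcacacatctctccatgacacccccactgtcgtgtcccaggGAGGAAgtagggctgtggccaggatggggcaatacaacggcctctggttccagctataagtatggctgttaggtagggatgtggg
Ngp (chr9:110419558-110419807): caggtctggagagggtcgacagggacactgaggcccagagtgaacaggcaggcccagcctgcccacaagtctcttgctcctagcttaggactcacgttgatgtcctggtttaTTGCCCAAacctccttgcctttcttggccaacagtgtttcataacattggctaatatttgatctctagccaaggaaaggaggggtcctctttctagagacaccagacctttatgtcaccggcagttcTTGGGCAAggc
Ltf (chr9:111019042-111019291): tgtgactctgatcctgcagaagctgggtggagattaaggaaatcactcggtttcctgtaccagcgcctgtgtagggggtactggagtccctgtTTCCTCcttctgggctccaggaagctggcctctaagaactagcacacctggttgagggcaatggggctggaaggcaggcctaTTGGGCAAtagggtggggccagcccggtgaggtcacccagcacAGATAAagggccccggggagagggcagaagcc
Hba-a1 (chr11:32283422-32283671): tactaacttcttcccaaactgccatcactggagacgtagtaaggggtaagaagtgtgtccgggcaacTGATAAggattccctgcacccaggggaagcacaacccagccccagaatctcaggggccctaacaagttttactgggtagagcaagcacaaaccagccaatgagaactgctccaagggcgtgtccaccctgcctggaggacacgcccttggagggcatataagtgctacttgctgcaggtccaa
Hba-a2 (chr11:32296242-32296491): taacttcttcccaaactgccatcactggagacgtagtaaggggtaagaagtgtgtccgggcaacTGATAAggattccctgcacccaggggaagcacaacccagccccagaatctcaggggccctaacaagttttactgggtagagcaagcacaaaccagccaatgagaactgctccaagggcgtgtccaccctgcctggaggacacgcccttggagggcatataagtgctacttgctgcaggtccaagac
Alas2 (chrX:150547167-150547416): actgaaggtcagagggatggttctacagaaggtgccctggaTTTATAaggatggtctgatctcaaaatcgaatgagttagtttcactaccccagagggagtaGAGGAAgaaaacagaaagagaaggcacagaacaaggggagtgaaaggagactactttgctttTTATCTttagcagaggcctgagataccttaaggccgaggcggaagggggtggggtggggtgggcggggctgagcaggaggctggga
The motifs searched were TTGCNNAA for C/EBP factors, AGATAA or TGATAA for GATA factors, GAGGAA for PU.1, CCACACCC for the CACCC box and TATAAA for the TATA box, none of which contains another. They were counted in windows from 250 bases before to 50 bases after the start, which were found for 28 members. Among the 8 members counted almost entirely in CgA-KO replicate 2, the C/EBP motif lay in the windows of 4 (Ngp, Ltf, Ms4a3 and Fcnb), against 10.8% of all 32851 windows. The PU.1 motif lay in those of 5 (Mpo, Elane, Ctsg, Ltf and Ms4a3), against 28.3% of all windows. The GATA motif lay in the windows of 5 of 7 red cell members, Hba-a1, Hba-a2, Alas2, Klf1 and Epor, against 18.6% of all windows. Of the 7 red cell members, 0 had the C/EBP motif and 2 had the PU.1 motif (Alas2 and Gata1). The GATA motif lay in the window of 1 of the 8 granulocyte members, Ltf. Nothing is read from counts this small. The windows of Hba-a1 and Hba-a2 were identical at 297 of 303 aligned positions (98.0%). A match is a description of the letters and not a bound site.

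Over all genes, edgeR's quasi-likelihood test of CgA-KO against WT called 8.60% of 13867 genes higher and 3.84% lower at an adjusted p under 0.05. Among the 20 members tested, 5 were called higher (Chil1, Hba-a2, Slc4a1, Runx1 and Spi1), 2 were called lower (Cebpe and Alas2) and 13 were not called. The genotypes did not overlap, with the CgA-KO livers on the upper side, in 8 of the 20, and in 19.0% of all genes tested. Nothing is read from these shares, since Ngp, Chil1 and Slc4a1, 3 of the 8, had at most 6 counts in any WT library and passed the filter on their CgA-KO counts. With either direction counted the number was 10, and the share of all genes tested was 33.6%. The median log2 fold change of the 20 was 1.22, and that of all genes tested was -0.01. Nothing is read from these medians either, for the same reason and because the members were chosen with earlier results known. Chil1 and Spi1 were called in every fit that left out 1 liver, whereas each of the other 5 called genes lost its call in at least 3 of the 6 such fits. Since Chil1 and Slc4a1 passed the filter on their CgA-KO counts, their calls are a description and add no support. With at least 10 counts asked for in every library, Chil1, Slc4a1 and Ngp were not tested.

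**Figure D1:**
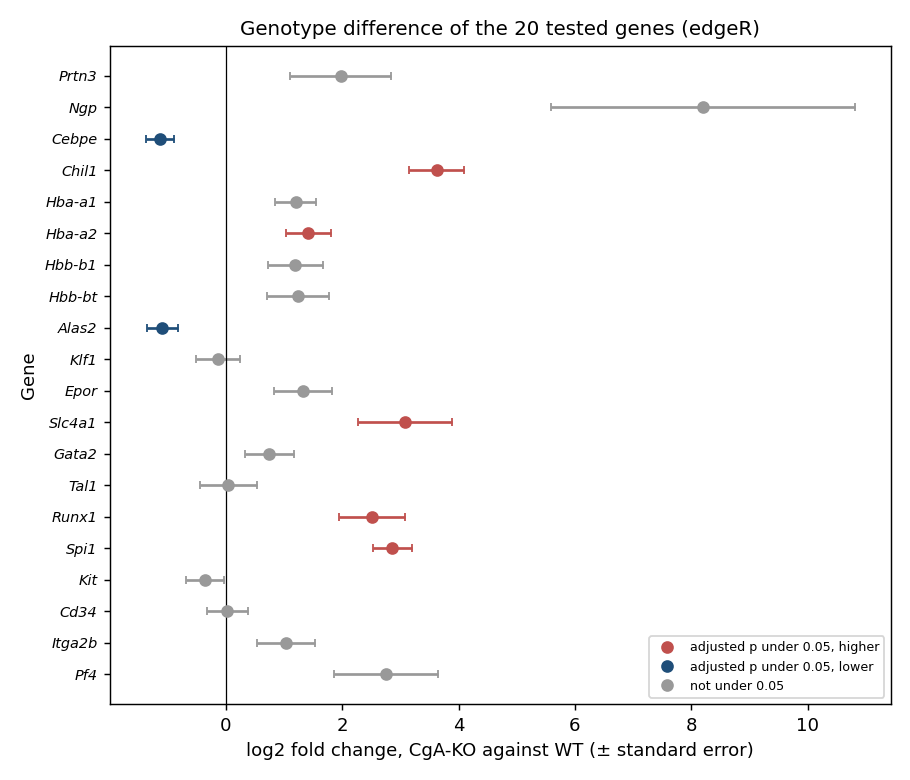
Log2 fold changes of CgA-KO against WT for the 20 members tested by edgeR, with bars of 1 standard error. Red points are the 5 genes called higher, blue points Cebpe and Alas2, called lower, and grey points genes not called. Ngp has the widest bar.

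CgA-KO replicate 2 was the highest library for 12 of the 13 granulocyte precursor genes. Outside it, Mpo, Elane, Ctsg, Camp, Ngp, Ltf, Ms4a3 and Fcnb had at most 36 counts in any library, while Prtn3 and Cebpe were counted in all 6. Summed over the 13 genes, the TMM-scaled level was 14.8, 13.4 and 13.4 CPM in the WT libraries, and 9.42, 276 and 15.7 CPM in the CgA-KO libraries. In counts, these sums were 165, 316 and 317 in WT and 203, 8715 and 351 in CgA-KO. In this sum the genotypes overlapped, and CgA-KO replicate 2 stood far above the rest. Most of the WT sum was Cebpe, at 9.65 to 11.7 CPM in WT, which went the other way. Camp, Ngp and Ltf together had 0.537, 0.468 and 0.0847 CPM in WT and 1.11, 150 and 4.08 CPM in CgA-KO, without overlap. The WT values rest on 6, 11 and 2 counts. Mpo, Elane, Prtn3 and Ctsg together had 1.97, 3.06 and 1.27 CPM in WT and 1.21, 111 and 5.285 CPM in CgA-KO, with overlap.

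The transcript of myeloperoxidase, a primary granule enzyme that makes hypochlorous acid, was found almost entirely in 1 liver. Mpo, on chr11:87793581-87804413, had 0 counts in each WT library and 0, 2107 and 15 counts in CgA-KO replicates 1, 2 and 3. CgA-KO replicate 2 reached 66.8 CPM and CgA-KO replicate 3 reached 0.672 CPM, a ratio of 99.4 (95% counting interval 60.1 to 178, exact binomial). CgA-KO replicate 2 thus held 99.0% of the CPM summed over the 6 libraries. Averaged over livers, Mpo was at least 437-fold higher in CgA-KO than a floor of 3 counts over the WT group, and this bound rests on CgA-KO replicate 2. An antisense gene, Gm11505, shares 512 exon bases with Mpo.

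The primary granule proteases had the same distribution to differing degrees. Elane, neutrophil elastase, on chr10:79886247-79888215, had 1, 3 and 0 counts in WT and 3, 588 and 16 counts in CgA-KO. Its level in CgA-KO replicate 2 was 18.6 CPM, 26.0 times that of CgA-KO replicate 3 (95% counting interval 15.9 to 45.8). Cathepsin G, a protease of the same granules, was at 0 in 4 libraries: Ctsg had 215 counts in CgA-KO replicate 2, against 2 in the third CgA-KO liver.
Prtn3, proteinase 3, lies 3072 bases from Elane and differed in having reads in every library. Its levels were 1.88, 2.94 and 1.27 CPM in WT and 1.07, 18.95 and 3.81 CPM in CgA-KO, so CgA-KO replicate 1 lay below all WT livers. The log2 fold change was 1.97 (standard error, SE, 0.866 and adjusted p = 0.17 in edgeR), and it was 0.31 without CgA-KO replicate 2. Exons of Prtn3 overlap those of Plppr3 on the other strand over 9.2% of their bases.

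Secondary granule genes lay in the same library. Ngp, neutrophilic granule protein, had 0, 6 and 0 counts in WT and 16, 2903 and 36 in CgA-KO. Its level in CgA-KO replicate 2 was 92.0 CPM, 57.0 times that of CgA-KO replicate 3 (95% counting interval 41.1 to 81.6). Ngp was the only gene of this kind to pass the filter, and its genotypes did not overlap. Its fitted log2 fold change was 8.21 (SE 2.61, adjusted p = 0.0963 in edgeR), was 3.55 without CgA-KO replicate 2, and depends on the prior count because WT was near 0. With the replicate number as a block the adjusted p was 0.00253.
Ltf, lactoferrin, which binds iron, had 4, 3 and 2 counts in WT and 5, 1221 and 24 in CgA-KO. Camp, the cathelicidin precursor, had 2, 2 and 0 counts in WT and 3, 598 and 31 in CgA-KO. CgA-KO replicate 2 held 95.4% of the summed CPM of Ltf and 91.4% of that of Camp. These 3 genes lie on chromosome 9, with 570129 bases between Camp and Ngp and 596258 bases between Ngp and Ltf.

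Other products of immature granulocytes were counted at lower levels in that liver. Ms4a3, a membrane protein of granulocyte-monocyte progenitors, reached 85 counts in CgA-KO replicate 2 and was at 0 in the other 5, at least 10-fold above a floor of 3 counts in the shallowest of them. Fcnb, ficolin B, a lectin of myeloid cells, reached 81 counts in CgA-KO replicate 2, with 2 in the third CgA-KO liver and 0 elsewhere. Ms4a2, the beta chain of the high-affinity IgE receptor of mast cells and basophils, had 7 counts there and at most 2 in any other library, close to the floor.

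Prtn3, Ngp, Cebpe and Chil1 were the only granulocyte members that passed the filter. Chil1, a chitinase-like protein that is also made by macrophages, was higher in all 3 CgA-KO livers. Its levels were 0.179, 0.128 and 0.169 CPM in WT and 1.67, 2.25 and 2.02 CPM in CgA-KO, without overlap. The mean rose from 0.159 ± 0.0273 to 1.98 ± 0.292 CPM (SD, n = 3), a log2 fold change of 3.62 (SE 0.474, adjusted p = 0.00475 in edgeR). The WT values rest on 2, 3 and 4 counts. The fold change of Chil1 ranged from 3.47 to 3.76 when 1 liver was left out, with an edgeR adjusted p of at most 0.0285.

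Cebpe, the gene of a C/EBP factor needed for secondary granule genes, went the other way. Its levels were 11.7, 9.65 and 11.7 CPM in WT and 4.69, 6.18 and 4.12 CPM in CgA-KO, without overlap. The mean fell from 11.04 ± 1.20 to 4.995 ± 1.063 CPM (SD, n = 3), a log2 fold change of -1.14 (SE 0.241, adjusted p = 0.0189 in edgeR). The call was lost without WT replicate 3, CgA-KO replicate 1 or CgA-KO replicate 3, with an edgeR adjusted p of up to 0.0915, and with library size alone (0.0978). Cebpe was thus counted in every liver, including those in which Mpo, Ctsg, Ms4a3 and Fcnb had 0 counts, and CgA-KO replicate 2 was not its highest library. Gfi1, a repressor that acts in granulocyte precursors, had 3, 1 and 4 counts in WT and 16, 46 and 2 in CgA-KO. Its genotypes overlapped, because CgA-KO replicate 3 lay within the WT range.

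**Figure D2:**
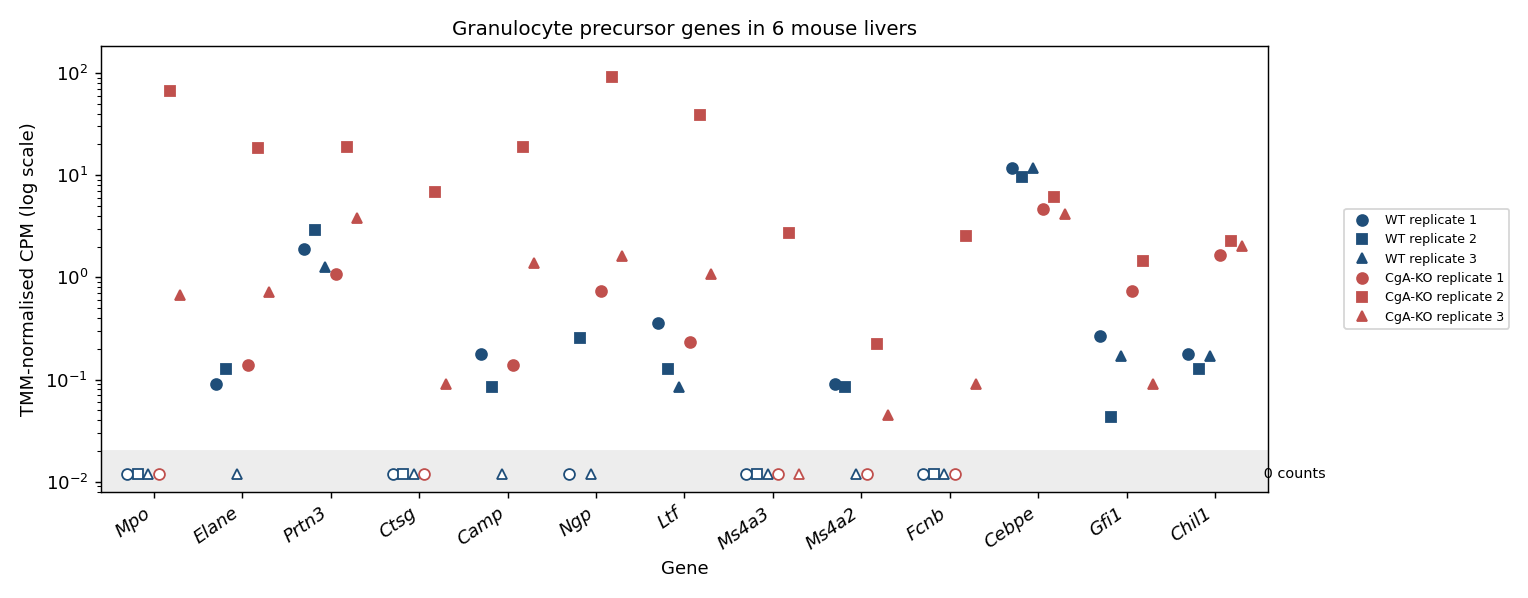
TMM-scaled CPM (log axis) of the 13 granulocyte precursor genes in each of the 6 livers, with blue for WT, red for CgA-KO and a shape for each replicate number. Open symbols in the grey band had 0 counts. CgA-KO replicate 2, the red square, is the highest point for every gene but Cebpe.

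The concentration in a single liver was uncommon among all genes. Of 12561 rows with at least 50 counts in some library, 0.223% had over 90% of their summed CPM in 1 library. Among the 26 members with such counts, 8 did: Mpo, Elane, Ctsg, Camp, Ngp, Ltf, Ms4a3 and Fcnb, each of them in CgA-KO replicate 2. The members were listed with earlier results of these libraries known, so this count describes them and tests nothing. CgA-KO replicate 2 was the highest library for 16 of the 26 (61.5%), against 21.8% of the 12561 rows. It was not the deepest, with 28672817 counts against 31087453 in WT replicate 2.

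**Figure D3:**
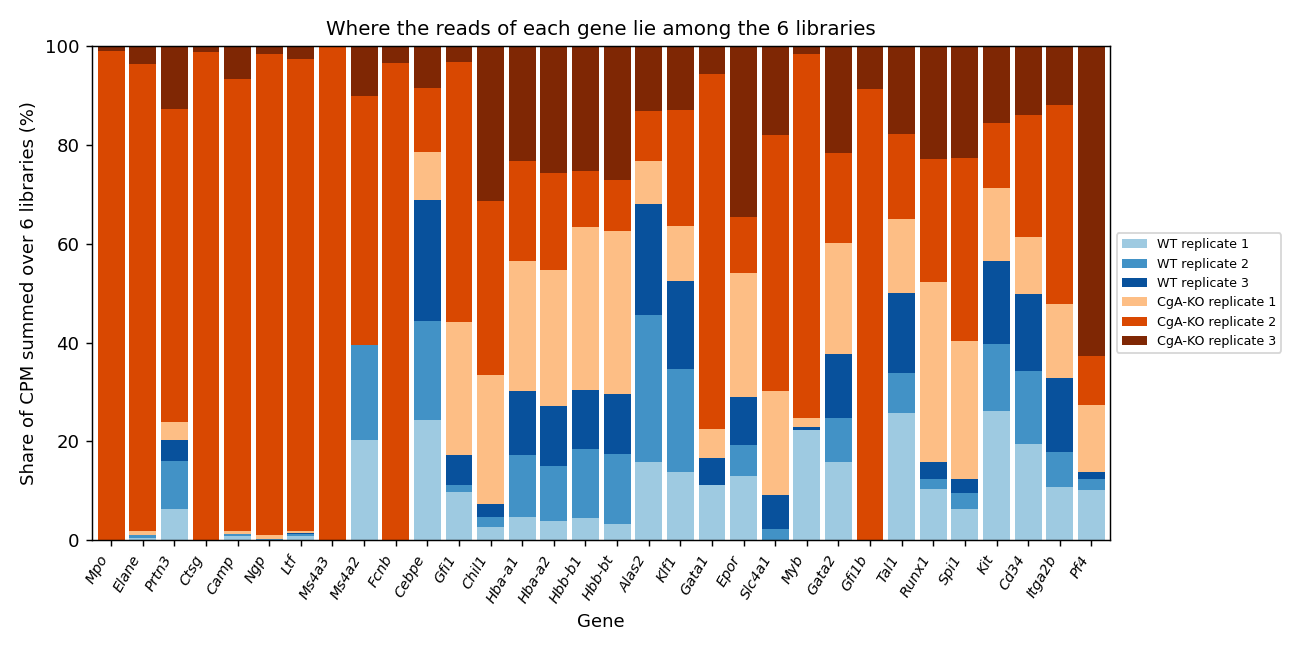
Share of each member's CPM, summed over the 6 libraries, that lies in each library, in percent, for the 32 matched members. CgA-KO replicate 2, the bright orange segment, holds between 91.4% and 100% for Mpo, Elane, Ctsg, Camp, Ngp, Ltf, Ms4a3, Fcnb and Gfi1b, while the globins and Spi1 are spread over all CgA-KO livers.

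The genes outside the set whose reads were most concentrated in the library where Mpo was highest were named by that share, over the 6 libraries. They were Trav6d-7 (100%), Prss34 (95.8%), Trbv29 (93.8%), Kcnc1 (91.0%), Gzmm (90.9%), Igkv6-17 (90.8%), Fgf13 (90.7%), Itgb2l (90.1%), Wfikkn2 (88.7%) and 5830411N06Rik (88.2%). Prss34 encodes a basophil and mast cell protease, Trav6d-7 and Trbv29 are segments of T cell receptor genes, Igkv6-17 is an immunoglobulin segment and Gzmm is a granzyme of lymphocytes. Prss34 reached 65 counts in CgA-KO replicate 2, with 2 in the third CgA-KO liver and 0 elsewhere.

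Genes of later neutrophil stages were compared with the precursor genes. Of the 22 other neutrophil granule and maturation genes, 19 passed the filter, 12 were called higher, 0 lower, and their median log2 fold change was 2.30. Over all genes tested, 8.60% were called higher. Nothing is read from this number or median, since some of the genes, Cd177 and Mmp8 among them, passed the filter on their CgA-KO counts. This list of 22 is not exclusive to neutrophils. Of its most abundant genes, Cybb, the phagocyte oxidase subunit shared with macrophages, was higher by 3.40 on the log2 scale (adjusted p = 0.00434 in edgeR), with 16.9, 7.10 and 5.89 CPM in WT and 77.3, 90.3 and 143 CPM in CgA-KO. Lyz2, lysozyme of myeloid cells, was higher by 1.81 (adjusted p = 0.0375 in edgeR). Hp and Lbp, which hepatocytes secrete, gave 0.04 and 0.66 on the log2 scale and were not called (adjusted p = 0.947 and 0.122 in edgeR). Without CgA-KO replicate 2 or WT replicate 2 the number called higher was 6, and it was 4 without WT replicate 3. CgA-KO replicate 2 was the highest library for 17 of the 22 genes. Named after their values were seen, Cd177, a neutrophil surface protein, had 86.4% of its summed CPM there, the calcium-binding S100a8 and S100a9 had 66.5% and 66.0%, and Mmp8, neutrophil collagenase, had 59.9%. S100a8 had 15, 61 and 26 counts in WT and 221, 1607 and 232 in CgA-KO, so the other CgA-KO livers also lay above WT. Not every gene of the list was highest in CgA-KO replicate 2. Lyz2, Cybb and Cyba were highest in CgA-KO replicate 3, and Csf3r and Cxcr2 in CgA-KO replicate 1. Lcn2 had 126 and 125 CPM in CgA-KO replicates 2 and 3.

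The sums of the Kupffer cell markers and of the T and NK cell markers moved with the genotype. The 12 Kupffer cell markers, mostly genes of resident liver macrophages, summed to 290, 148 and 132 CPM in WT and 1718, 1818 and 1352 CPM in CgA-KO. Of the 12, 9 were called higher and 0 lower, and Marco, Cd163 and Xcr1 were not called. Marco was at 0.139 and 1.08 CPM in CgA-KO replicates 1 and 3, below all WT livers, and at 57.3 CPM in CgA-KO replicate 2. The 12 T and NK cell markers matched summed to 21.4, 5.87 and 7.32 CPM in WT and 64.9, 187 and 60.4 CPM in CgA-KO, with 6 of 11 tested called higher, a number that fell to 3 without CgA-KO replicate 2 and to 0 without WT replicate 2 or 3. CgA-KO replicate 2 was the highest library for both sums. Of the B and plasma cell markers, 1 of 10 was called higher. Without Xbp1, which hepatocytes also express, they summed to 78.9, 27.0 and 18.9 CPM in WT and 106, 43.6 and 43.5 CPM in CgA-KO, so WT replicate 1 lay above 2 of the CgA-KO livers. The part of these cells in the members' differences was not tested.

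Among the red cell genes, Hba-a2 and Slc4a1 were called higher and Alas2 lower in CgA-KO, and the other 5 tested were not called. The 4 globin genes together summed to 124, 376 and 354 CPM in WT and 871, 449 and 727 CPM in CgA-KO. The genotypes did not overlap in this sum. Without the globins and Alas2, the red cell members summed to 4.21, 4.68 and 4.70 CPM in WT and 5.98, 8.17 and 7.35 CPM in CgA-KO. This sum was thus not lower in CgA-KO, but it does not speak for each gene in it. Klf1 had 2.51, 3.83 and 3.22 CPM in WT and 2.04, 4.28 and 2.37 CPM in CgA-KO.

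Hba-a1 and Hba-a2, which encode the alpha chains of adult haemoglobin, lie 12023 bases apart on chromosome 11. The levels of Hba-a2 were 30.97, 88.6 and 96.2 CPM in WT and 218, 156 and 203 CPM in CgA-KO. Its mean rose from 71.9 ± 35.6 to 192 ± 32.3 CPM (SD, n = 3), a log2 fold change of 1.42 (SE 0.387, adjusted p = 0.0452 in edgeR). The call held by a narrow margin: it was lost in 5 of the 6 fits without 1 liver, all but that without WT replicate 1, with an edgeR adjusted p of up to 0.127. With the replicate number as a block it was 0.0631.
The levels of Hba-a1 were 28.3, 74.6 and 78.3 CPM in WT and 156, 121 and 139 CPM in CgA-KO. Its log2 fold change of 1.20 (SE 0.352, adjusted p = 0.0573 in edgeR) was not called, although its genotypes did not overlap either. Without WT replicate 1 it was 0.90 with an edgeR adjusted p of 0.0295. Hba-a1 was also called with library size alone (adjusted p = 0.0247 in edgeR), upper-quartile factors (0.0471), DESeq2 (0.0108) and limma-voom (0.049). Of the 31-base words of Hba-a2, 92.6% also occur in Hba-a1, so the split of reads between the 2 genes is uncertain.

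The beta globins differed from the alpha globins in CgA-KO replicate 2. The symbol Hbb-b1 was not found on the reference chromosomes of the GRCm38 annotation used here, so which transcripts its row counts in C57BL/6 mice is uncertain. Hbb-b1 had 57.3, 182 and 153 CPM in WT and 424, 149 and 325 CPM in CgA-KO. Hbb-bt, the other adult beta chain, had 7.34, 30.8 and 26.5 CPM in WT and 72.3, 22.7 and 59.4 CPM in CgA-KO. In both, CgA-KO replicate 2 lay within the WT range while the other CgA-KO livers lay above it. The log2 fold change was 1.19 for Hbb-b1 (SE 0.477, adjusted p = 0.137 in edgeR) and 1.24 for Hbb-bt (SE 0.532, adjusted p = 0.161 in edgeR), and neither was called. Hbb-bs, a near copy with which Hbb-bt shares 59.4% of its 31-base words, was not matched, so the split of reads between beta globin genes is uncertain as well.

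Ratios within a library do not depend on its scaling. Of all globin counts, without adjustment for length, the alpha genes held 47.8%, 43.4% and 49.3% in WT and 43.0%, 61.8% and 47.1% in CgA-KO. CgA-KO replicate 2 thus had the highest alpha share, with a 95% Wilson interval of 61.0% to 62.6% that covers counting error only, and the other 5 intervals lay between 42.3% and 50.5%. The ratio of Hba-a2 to Hba-a1 counts was 1.09, 1.19 and 1.23 in WT and 1.39, 1.29 and 1.46 in CgA-KO. The ratio of Hbb-b1 to Hbb-bt counts was 7.80, 5.93 and 5.75 in WT and 5.87, 6.55 and 5.47 in CgA-KO, and here the genotypes overlapped.

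**Figure D4:**
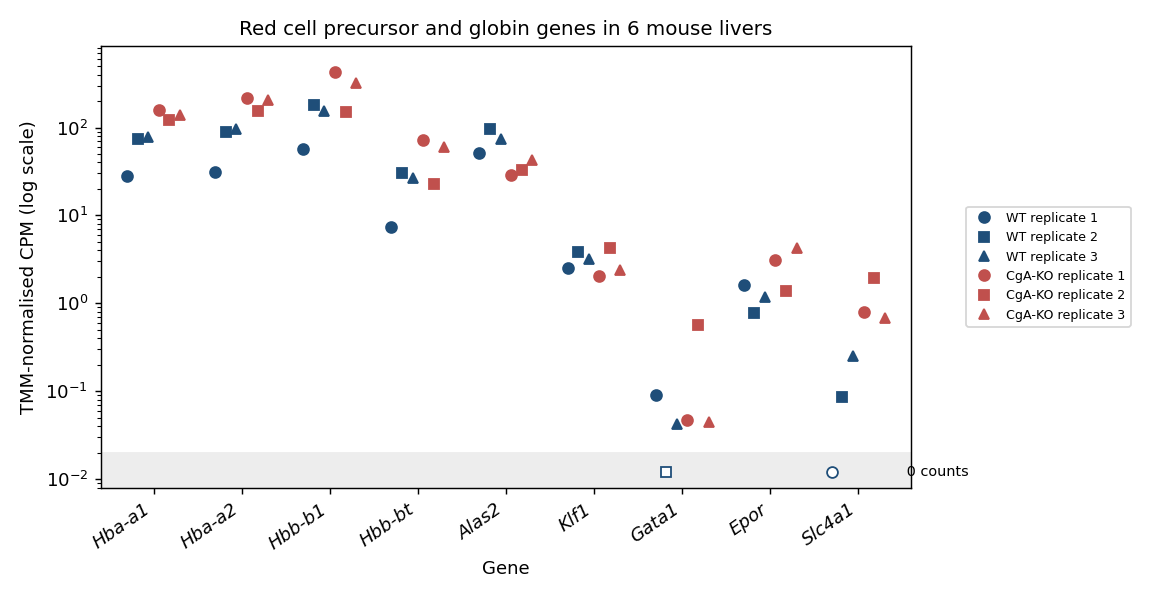
TMM-scaled CPM (log axis) of the 9 matched red cell genes in each of the 6 livers, with blue for WT, red for CgA-KO and a shape for each replicate number. Open symbols in the grey band had 0 counts. The red points lie above the blue for Hba-a1, Hba-a2 and Slc4a1 and below them for Alas2.

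Alas2, the red cell form of the first and rate-limiting enzyme of haem synthesis, was lower in CgA-KO. Within WT it did not run against globin: WT replicate 1 had the lowest level of both, and WT replicate 2 the highest. Its levels were 51.7, 97.0 and 73.1 CPM in WT and 28.6, 33.0 and 42.6 CPM in CgA-KO, without overlap. The mean fell from 73.9 ± 22.7 to 34.7 ± 7.15 CPM (SD, n = 3), a log2 fold change of -1.09 (SE 0.261, adjusted p = 0.0287 in edgeR). Per 100 globin counts, Alas2 had 41.8, 25.8 and 20.7 counts in WT and 3.29, 7.36 and 5.86 in CgA-KO, again without overlap. The call was lost without WT replicate 2, WT replicate 3, CgA-KO replicate 1 or CgA-KO replicate 2, with an edgeR adjusted p of up to 0.115. Exons of Apex2 on the other strand cover 12.9% of the exon bases of Alas2, and reads of the 2 genes may not be separable there.

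Slc4a1, the band 3 anion exchanger of the red cell membrane, was called higher at low counts, a call that describes them and adds no support. It passed the filter on its CgA-KO counts. It had 0, 2 and 6 counts in WT and 17, 61 and 15 in CgA-KO, without overlap. CgA-KO replicate 2 held 51.8% of its summed CPM. The log2 fold change was 3.08 (SE 0.801, adjusted p = 0.0388 in edgeR), and the call was kept only without WT replicate 1 among the fits that left out a liver, with an edgeR adjusted p of up to 0.13. With the replicate number as a block the adjusted p was 0.0758.

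Of the red cell regulators, Epor and Klf1 were tested and not called, and Gata1 failed the filter and was not tested. Epor, the erythropoietin receptor, had 1.61, 0.766 and 1.19 CPM in WT and 3.11, 1.39 and 4.26 CPM in CgA-KO, with a log2 fold change of 1.32 (SE 0.499, adjusted p = 0.119 in edgeR). CgA-KO replicate 2 lay within the WT range of Epor, as it did for the beta globins. Klf1, the factor that activates adult beta globin, ranged from 2.51 to 3.83 CPM in WT and from 2.04 to 4.28 CPM in CgA-KO, with a log2 fold change of -0.14 (adjusted p = 0.848 in edgeR) whose sign was positive with library size alone. Gata1, the master regulator of red cell and megakaryocyte genes, had 1, 0 and 1 counts in WT and 1, 18 and 1 in CgA-KO. CgA-KO replicate 2 held 71.9% of its summed CPM, and the other libraries were at or under the floor.

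Other genes of the red cell pathway were counted from lists. Of 28 other red cell genes matched, 15 passed the filter and 2 were called lower (Slc25a37 and Zfpm1), with a median log2 fold change of 0.02. Slc25a37, mitoferrin, which carries iron into mitochondria for haem, had 77.8, 67.8 and 105 CPM in WT and 40.5, 33.5 and 44.1 CPM in CgA-KO, a log2 fold change of -1.08 (adjusted p = 0.0163 in edgeR). Its genotypes did not overlap, and its direction was that of Alas2. Tfr2, a sensor of iron-loaded transferrin that hepatocytes also express, and Epb41, a membrane skeleton protein, gave -0.28 and 0.34 on the log2 scale (adjusted p = 0.466 and 0.339 in edgeR). Blvrb, biliverdin reductase B, gave -0.86 (adjusted p = 0.0656 in edgeR).
Of the 8 other enzymes of haem synthesis, 0 were called higher and 2 lower, with a median log2 fold change of -0.49. These were Alas1, the form of the first enzyme used in liver cells, at -1.14 (SE 0.314, adjusted p = 0.0474 in edgeR), and Alad, the next enzyme, at -0.80 (adjusted p = 0.047 in edgeR). Both had a margin so narrow that neither was called with library size alone, with upper-quartile factors or without WT replicate 3, and at most 1 of them was called in any fit without 1 liver. Fech and Cpox, later enzymes of the pathway, gave -0.50 and -0.23 (adjusted p = 0.181 and 0.514 in edgeR) and were not called.

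The progenitor factors held the firmest difference of the set, in Spi1. Spi1, on chr2:91082390-91115756, encodes PU.1, a factor that drives myeloid development and is also made by macrophages and B cells. Its levels were 7.25, 3.91 and 3.13 CPM in WT and 32.5, 42.8 and 26.4 CPM in CgA-KO, and the lowest CgA-KO liver lay above the highest WT liver. The mean rose from 4.77 ± 2.19 to 33.9 ± 8.30 CPM (SD, n = 3), a log2 fold change of 2.86 (SE 0.337, adjusted p = 0.00355 in edgeR). It ranged from 2.62 to 3.30 when 1 liver was left out, with an edgeR adjusted p of at most 0.0209. WT replicate 1 had the highest level of Spi1 in WT, and it also had the highest Kupffer cell marker sum there.

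Runx1, a factor that founds blood stem cells and continues in myeloid and lymphoid cells, was also higher. Its levels were 2.24, 0.425 and 0.7197 CPM in WT and 7.79, 5.32 and 4.88 CPM in CgA-KO, without overlap. The log2 fold change was 2.51 (SE 0.564, adjusted p = 0.0232 in edgeR). It kept its direction in every fit without 1 liver but lost the call in 4 of the 6, namely without WT replicate 2, WT replicate 3, CgA-KO replicate 1 or CgA-KO replicate 2, with an edgeR adjusted p of up to 0.113.

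The other progenitor factors gave no call, and Myb and Gfi1b, which are more restricted to progenitors, could not be tested. Myb, which sustains dividing progenitors, had 20, 0 and 1 counts in WT and 3, 186 and 3 in CgA-KO. CgA-KO replicate 2 was 3.29 times as high as WT replicate 1 in CPM (95% counting interval 2.07 to 5.51), and these 2 livers held nearly all of its reads. Gfi1b, a repressor of red cell and megakaryocyte precursors, reached 15 counts in CgA-KO replicate 2, with 1 in the third CgA-KO liver and 0 elsewhere. Both genes failed the filter, and both had their highest level in the liver with the granule transcripts.
Gata2, a stem cell, mast cell and endothelial factor, had 0.985, 0.553 and 0.804 CPM in WT and 1.39, 1.14 and 1.34 CPM in CgA-KO. These did not overlap, but the log2 fold change of 0.75 (SE 0.422, adjusted p = 0.279 in edgeR) was not called. Tal1, Kit and Cd34, which progenitors share with endothelial or mast cells, had log2 fold changes of 0.04, -0.36 and 0.02 (adjusted p = 0.966, 0.504 and 0.977 in edgeR). Their genotypes overlapped, with Kit between 2.98 and 5.91 CPM and Cd34 between 2.60 and 5.58 CPM over the 6 livers. The 10 sinusoidal endothelial markers summed to between 158 and 210 CPM in WT and between 177 and 254 CPM in CgA-KO, with 2 called higher and 1 lower.

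Of the 18 other stem and progenitor genes, 17 passed the filter, 10 were called higher and 1 lower, with a median log2 fold change of 1.95. Here too some genes passed the filter on their CgA-KO counts, so nothing is read from these numbers. Among the most abundant, Csf1r, the receptor of a macrophage growth factor, was higher by 2.96 (adjusted p = 0.0264 in edgeR) and Ptprc, which encodes CD45 of all white cells, by 2.503 (adjusted p = 0.0179 in edgeR). Hlf and Cebpa, which hepatocytes also express, were at -0.72 (adjusted p = 0.0447 in edgeR, called lower) and -0.88 (adjusted p = 0.0889 in edgeR, not called). Without CgA-KO replicate 1 or 2 the number called higher was 5, and it was 4 without WT replicate 2 or WT replicate 3.

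**Figure D5:**
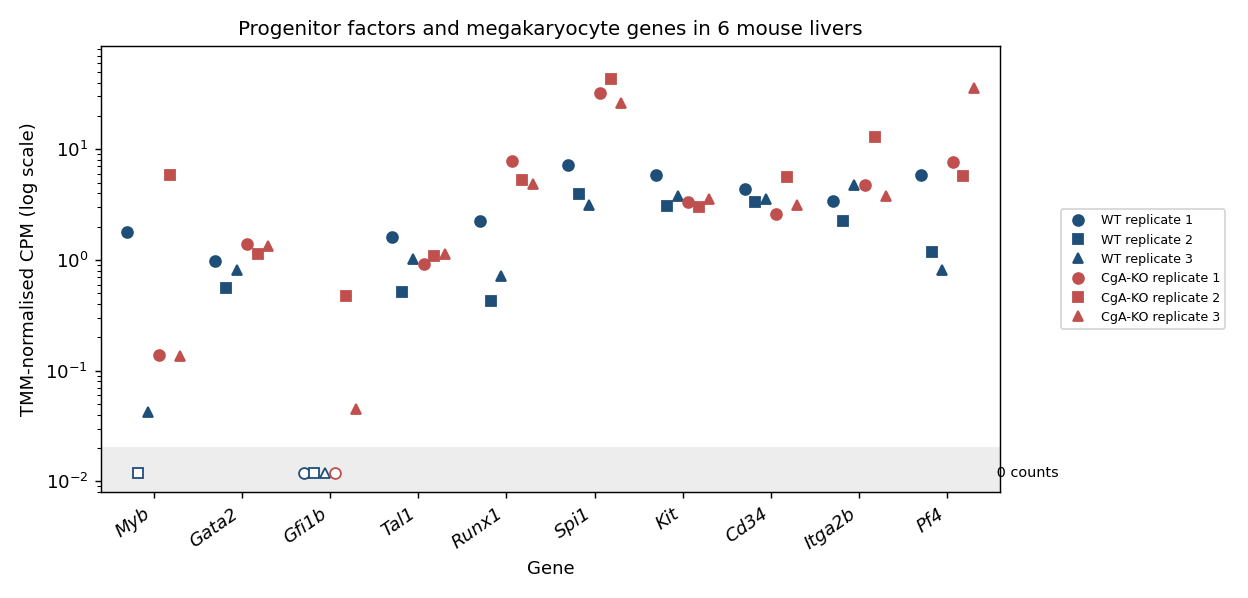
TMM-scaled CPM (log axis) of the 8 progenitor factors and 2 megakaryocyte genes in each of the 6 livers, with blue for WT, red for CgA-KO and a shape for each replicate number. Open symbols in the grey band had 0 counts. The red points of Runx1 and Spi1 lie above all blue points, while single livers stand out for Myb, Itga2b and Pf4.

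The 2 megakaryocyte genes were each highest in a different CgA-KO liver, Itga2b in replicate 2 and Pf4 in replicate 3. Pf4, platelet factor 4, a chemokine of platelet granules, had 5.82, 1.19 and 0.804 CPM in WT and 7.70, 5.70 and 35.7 CPM in CgA-KO. CgA-KO replicate 3 was 4.63 times as high as CgA-KO replicate 1 (95% counting interval 3.91 to 5.51) and held 62.7% of the summed CPM. The log2 fold change was 2.75 (SE 0.89, adjusted p = 0.0768 in edgeR) and was 1.45 without CgA-KO replicate 3. Itga2b, the platelet integrin subunit alpha IIb, had 3.40, 2.25 and 4.78 CPM in WT and 4.73, 12.8 and 3.76 CPM in CgA-KO. Its log2 fold change was 1.04 (SE 0.494, adjusted p = 0.204 in edgeR) and was 0.32 without CgA-KO replicate 2. Neither gene was called, and the genotypes overlapped in both.

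Of the 16 other megakaryocyte and platelet genes, 12 passed the filter, 4 were called higher and 0 lower, with a median log2 fold change of 2.52. Nothing is read from these numbers, since some of the genes passed the filter on their CgA-KO counts. Of the most abundant, Clec1b, the podoplanin receptor of platelets, which Kupffer cells also express, rose from 9.58, 6.47 and 6.60 CPM in WT to 65.2, 33.8 and 36.1 CPM in CgA-KO (log2 fold change 2.59, adjusted p = 0.00355 in edgeR). Plek, a protein of platelets and white cells, was higher by 3.03 (adjusted p = 0.0108 in edgeR) and Itgb3, the partner of Itga2b that other cells make too, by 2.45 (adjusted p = 0.00636 in edgeR). Vwf, von Willebrand factor of platelets and endothelium, gave 0.64 (adjusted p = 0.261 in edgeR). The number called higher was 2 without WT replicate 2 or 3 and 7 without CgA-KO replicate 3. CgA-KO replicate 2 was the highest library for 15 of the 16, as it was for most granulocyte genes. It held 77.5% of the summed CPM of Gp1ba, a platelet adhesion receptor chain, 73.4% of that of Ppbp, a platelet chemokine, and 63.5% of that of Tubb1, a tubulin of platelets, 3 genes named after their values were seen.

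Mast cell, basophil and eosinophil genes were mostly too low to test, with 2 of 19 passing the filter. Ear2, a ribonuclease of eosinophils and macrophages, was called higher at a log2 fold change of 3.45 (SE 0.363, adjusted p = 0.00296 in edgeR). Hdc, which makes histamine, gave 0.69 (adjusted p = 0.383 in edgeR). Ccr3, an eosinophil chemokine receptor, had 1 count in each WT library and 6, 10 and 317 counts in CgA-KO, so CgA-KO replicate 3 stood out there, as it did for Pf4.

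Proliferation genes were compared because precursors divide. Of 16 tested, 3 were called higher and 0 lower, with a median log2 fold change of 1.15. Some of the 16 passed the filter on their CgA-KO counts, so these numbers are a description. The most abundant were Pcna, a clamp of the replication machinery, at 0.28 (adjusted p = 0.378 in edgeR), and Tyms, which makes thymidylate, at -0.39 (adjusted p = 0.274 in edgeR). Mki67, a marker of dividing cells, had 6.44, 0.595 and 1.02 CPM in WT and 8.95, 15.2 and 19.9 CPM in CgA-KO. Its log2 fold change was 2.56 (adjusted p = 0.0603 in edgeR). Mcm6, a helicase subunit, gave 1.04 (adjusted p = 0.177 in edgeR). The number called ranged from 0 to 10 over the fits without 1 liver and was 10 without WT replicate 1, the WT liver with the highest Mki67. CgA-KO replicate 3 had the highest sum of these genes (142 CPM), while CgA-KO replicate 2, with the granule transcripts, had 123 CPM.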

How the data were processed

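Poly(A) RNA of 6 livers, 3 WT and 3 CgA-KO, was sequenced. The authors quantified reads per transcript with Salmon 1.4.0 against GRCm38; the deposited gene table holds counts, whole numbers without scaling. How transcripts were summed to genes is not given in the sources used here. The table's 6 columns all matched a sample. Replicates were kept separate, since counts of same-genotype pairs differed by more than sampling noise (chi-square per degree of freedom 31.9 to 202).

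Counts were analysed with edgeR 4.0.16 (R 4.3.3): filterByExpr with a minimum count of 10, TMM factors (0.7563 to 1.121), robust quasi-likelihood fits, and a two-sided test with Benjamini-Hochberg adjustment over 13867 genes. Standard errors are the fold change over the square root of F. Fold changes use edgeR's default prior count, and the log2 CPM behind the correlations between libraries use a prior count of 2. The procedure was tested on simulated data. Exact permutation of 3 against 3 livers cannot go below p = 0.1. Members and lists were chosen with earlier results of these data known. All members are named, and from other lists the 4 most abundant genes. Named after their values were seen were Zfpm1, Cd177, S100a8, S100a9, Mmp8, Lcn2, Cyba, Csf3r, Cxcr2, Marco, Cd163, Xcr1, Gp1ba, Ppbp and Tubb1. An item of the red cell list is not reported here. Alternatives were DESeq2 1.42.0, limma-voom (limma 3.58.1), other scalings and filters, a threshold of 0.01, a replicate block, and fits without 1 liver. Coordinates follow GENCODE on GRCm38. Figures used matplotlib 3.10.9.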

Additional observations from a re-analysis of the deposited data

How the results depend on the processing

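Over the fits that left out 1 liver, the number of genes called ranged from 394 to 2126 against 1726, members called higher from 2 to 6 against 5, members called lower from 0 to 2 against 2, and genes called in the other lists from 21 to 63 against 55. A threshold of 0.01 gave 360 genes, 2 members higher and 0 lower, and 21 genes of the other lists. With at least 10 counts in every library, 3 members were called higher, as fewer could be tested. Library size alone left 1 member lower and shifted the median over all genes to 0.26 (log2), with 86.6% of calls higher against 69.1%. The log2 fold changes of Klf1, Tal1 and Cd34, all near 0, changed sign: Klf1 was 0.16 with library size alone and ranged from -0.494 to 0.094 without 1 liver, Tal1 ranged from -0.31 to 0.48, and Cd34 from -0.34 to 0.26, with -0.000279 under RLE factors. The cause was not tested.

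Replicate numbers did not pair the livers: the correlations of same-numbered libraries were 0.20, 0.01 and -0.07, and not every library correlated best with its own number. With that number as a replicate block, 1498 genes, 4 members higher, 2 lower and 46 genes of the other lists were called, and Cd34 was -0.045. DESeq2, the tool named in the study's methods, called 2579 genes, 7 members higher and 2 lower.

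Without CgA-KO replicate 1, 4 granulocyte members were called higher: Chil1, Elane, Camp and Ltf (edgeR adjusted p = 0.0187, 0.0428, 0.032 and 0.0435). Elane, Camp and Ltf failed the filter with all 6 livers and passed it there on CgA-KO replicates 2 and 3 alone. The liver left out had 3, 3 and 5 counts of them, so nothing is read from these calls. In the fits without a WT liver, their edgeR adjusted p lay between 0.17 and 0.343. In the fit of all 6 livers with a total of 1 count as the filter, the 12 untested members had an edgeR adjusted p between 0.152 and 0.757. DESeq2 called Camp among them (adjusted p = 0.0138). Depth limits these genes: below 3 counts, a level under 0.268 CPM in the shallowest library could not be seen.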
